A study of Mus musculus with 2 samples.

Results

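Replication-dependent histone genes make the bulk of the core and linker histones that package newly copied DNA. In the mouse they lie in the Hist1, Hist2, Hist3 and Hist4 clusters. The genes were taken by symbol, and 70 of the 55536 annotated genes in the tables had a symbol beginning with Hist1h, Hist2h, Hist3h or Hist4h. By type they were 6 H1, 20 H2A, 19 H2B, 12 H3 and 13 H4 genes, of which 67 were annotated as protein-coding and 3 as pseudogenes (Hist1h2aj, Hist1h2al and Hist3h2bb-ps). Hist1 on chromosome 13 held 56 of them, Hist2 on chromosome 3 held 10, Hist3 on chromosome 11 held 3, and Hist4 on chromosome 6 held 1.

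These genes are transcribed mainly while DNA is replicated, under the co-activator Npat. Their mRNAs as a rule have no introns and no poly(A) tail: they end just after a conserved stem-loop that is bound by Slbp and cut with the help of the U7 small nuclear RNP. Outside S phase, cells use replication-independent variants such as H3f3b and H2afz, whose mRNAs are polyadenylated. Macrophages grown from marrow divide in response to growth factor, so a culture can hold cells in and out of S phase. Libraries made from total RNA, with no selection for a poly(A) tail, can hold both kinds of transcript.

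The cells were bone marrow-derived macrophages of C57BL/6J mice, primary cells that had received 100 ng/ml lipid A, the membrane anchor of bacterial lipopolysaccharide, for 50 min. RNA came from the nucleoplasmic fraction, which another label calls the nucleus, and ribosomal RNA was depleted before the libraries were made. There was 1 group of 2 biological replicates, with 500 ng of RNA put into replicate 1 and 1 ug into replicate 2, and both carry the same donor label. Untreated cells and other fractions were not analysed here, so the values describe a level at 1 time and no response, and no p-value was computed.

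The gene rows summed to 10342900 expected counts in replicate 1 and 20495500 in replicate 2. In CPM, counts per 1000000 counts of those rows, 3 counts corresponded to 0.290 CPM and 0.146 CPM. TPM, transcripts per 1000000, divides the count by the effective length of the transcript. Small RNA genes made up 56.0% of the TPM total in replicate 1, with 73.4% in replicate 2, and the median log2 TPM ratio of replicate 2 over replicate 1 was -0.71 over the 12759 genes that had 10 expected counts or more in each library, against -0.10 on the CPM scale. Ratios of TPM between the replicates are therefore given less the median of all genes. All 8 macrophage markers reached 10 TPM in each library, while 0 of 4 T cell, 0 of 4 B cell and 0 of 4 erythroid markers reached 1 TPM in both. Of 4 neutrophil markers 1, S100a8, did so, with 1.67 and 1.27 TPM. Of 6 mitotic markers 2 did so: Mki67, at 74.03 and 41.77 TPM, and Top2a, at 5.71 and 3.20 TPM.

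The stem-loop was searched by its consensus letters, 16 bases long, on the sense strand of the annotated transcripts. It was found in 46 of the 70 genes, or 65.7%, and in 72 of 21834 other protein-coding genes, or 0.330%, among them the variant H2afx. Examples are shown because the stem-loop is the feature that sets the mature end of these mRNAs. The capitals mark the 16 bases of the stem-loop and the small letters the 5 bases on each side, 5′ to 3′, from the GENCODE M21 transcripts of mm10.
Hist1h1c: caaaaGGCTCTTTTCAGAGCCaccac
Hist1h1t: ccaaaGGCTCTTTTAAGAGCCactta
Hist3h2a: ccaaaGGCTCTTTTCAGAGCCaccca
Hist1h2bg: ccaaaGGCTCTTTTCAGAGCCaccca
Hist1h3d: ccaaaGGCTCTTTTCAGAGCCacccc
Hist1h4c: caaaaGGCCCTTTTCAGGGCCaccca
Hist1h4i: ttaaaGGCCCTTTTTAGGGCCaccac
Hist1h4j: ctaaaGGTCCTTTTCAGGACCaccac

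The core of Hist1h1c was the most common and was carried by 26 genes: 3 H1, 10 H2A, 8 H2B, 5 H3 and 0 H4. The core of Hist1h4c was carried by 7 genes, all of them H4. All 12 H4 genes in which a stem-loop was found had a core that no gene of another type had.

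The annotated transcripts did not all end where the stem-loop is. In 22 genes an annotated transcript ended within 60 nt after it, in 24 every transcript with it ran further, and in 24 the letters were not found in the annotated sequence. Where a model stops before the stem-loop the letters cannot be found, so their lack says nothing of the RNA. The 24 genes with longer models held 63.6% of the histone counts in replicate 1 and 61.7% in replicate 2. The 22 genes ending near the stem-loop held 20.1% and 22.2%, and the 24 without the letters held 16.3% and 16.1%. The per-length view was different: the summed level was 19.17 and 29.29 TPM for the longer models, against 29.59 and 41.0 TPM for those ending near the stem-loop. Which part of a long model the reads covered was not analysed here.

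As a family, the replication-dependent histone genes held a small share of the counts. Fewer cells that make a histone mRNA and less of it per cell cannot be told apart in these bulk libraries. Summed over the 70 genes, they took 421.1 expected counts in replicate 1 and 1697 in replicate 2. That was 40.7 CPM (95% exact Poisson interval 36.9 to 44.8) and 82.8 CPM (78.9 to 86.8), or 0.00407% and 0.00828% of all gene counts. All such intervals cover counting error only. The median histone gene had 0.275 TPM in replicate 1, with 0.67 TPM in replicate 2, a mean of 0.473 ± 0.279 TPM (SD, n = 2), where the median protein-coding gene was at 0.33 and 0.24 TPM.

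Of the 67 protein-coding histone genes, 18 reached 1 TPM in each library, as did 38.8% of all 22028 protein-coding genes. By type these were 9 of 13 H4, 5 of 20 H2A, 2 of 6 H1, 1 of 19 H2B and 1 of 12 H3 genes. Some rested on very few counts. In replicate 1 Hist1h4k had 1.53, Hist1h2ak had 2.0 and the H3 gene, Hist1h3i, had 2.61, under the 3 counts taken as the limit. There Hist1h4f had 3 and Hist1h4b had 3.8. No histone gene reached 10 TPM in both libraries, and Hist1h4m reached 12.31 TPM in replicate 2 only. The share of all genes at 10 TPM is not given here, so this count has no background beside it. In both libraries 8 of the 67 had 0 expected counts, against 33.9% of protein-coding genes. The family was thus read mostly as few counts per gene: 9 of the 67 had 10 expected counts or more in each library, against 47.1% of protein-coding genes. The count of 18 moved with the quantification, as given after the gene-by-gene values.

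**Figure D1:**
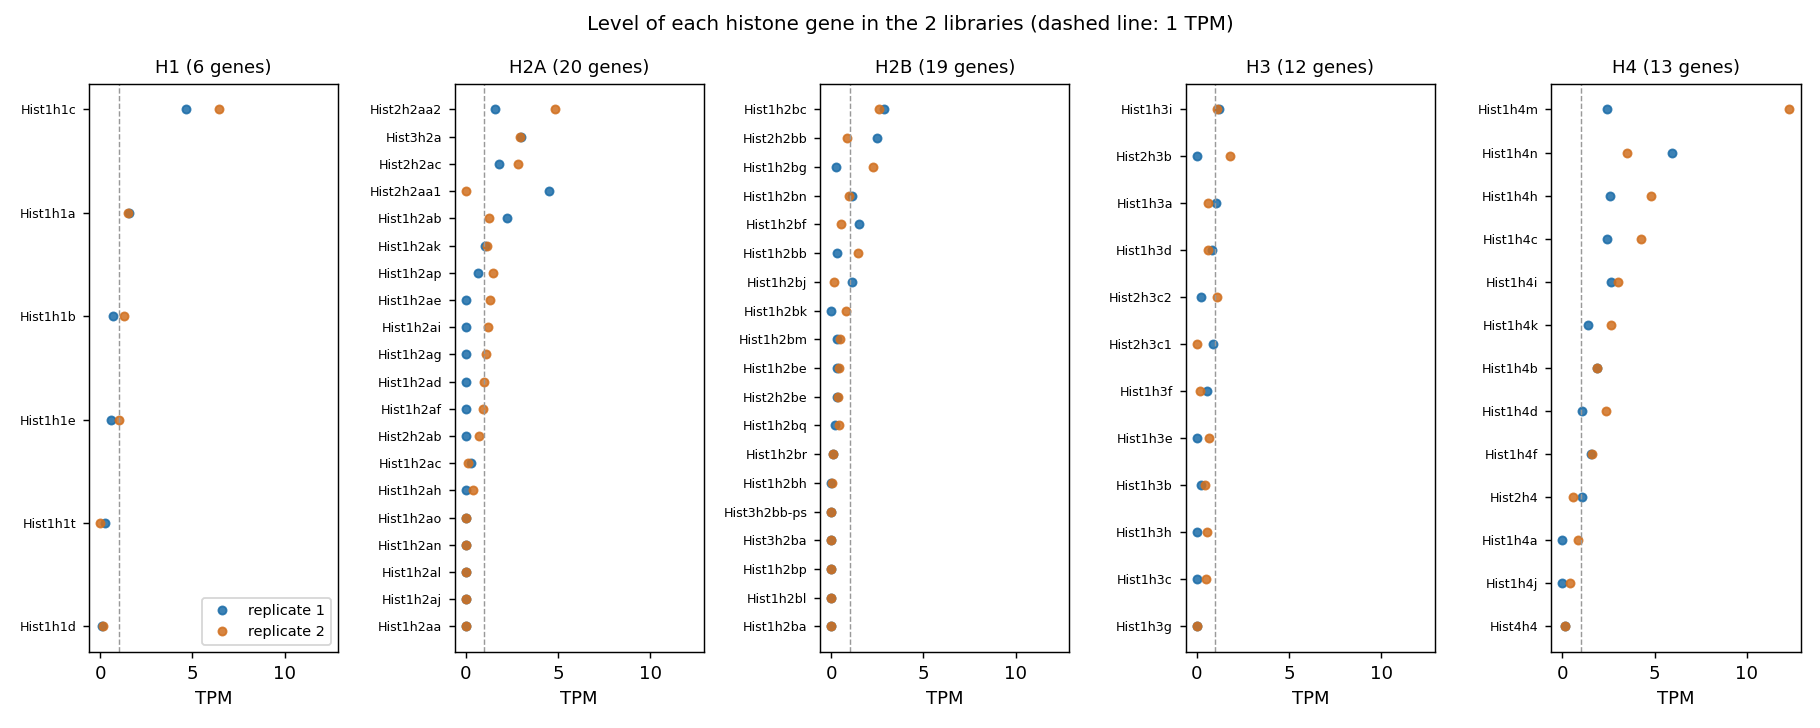
Level in TPM of each of the 70 histone genes in replicate 1 and replicate 2, 1 panel per type and 1 row per gene, ordered by mean TPM; the dashed line marks 1 TPM. The H4 panel holds 9 genes whose points for both libraries lie right of the line, and Hist1h4m in replicate 2, at 12.31 TPM, is the highest point of all. Of those 9, Hist1h4k rested on 1.53 counts in replicate 1, Hist1h4f on 3 and Hist1h4b on 3.8.

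H1 genes encode linker histones, which bind the DNA between nucleosomes. Hist1h1c, at chr13:23738808-23740367 on the plus strand, had the most counts of any histone gene in both libraries, 70.0 in replicate 1 and 300.9 in replicate 2. Its level was 4.65 and 6.46 TPM, a mean of 5.56 ± 1.28 TPM (SD, n = 2). It alone made up 16.6% and 17.7% of the histone counts. Hist1h1a followed with 1.54 and 1.49 TPM, from 9 and 28 counts. Hist1h1b had 0.68 and 1.27 TPM, and Hist1h1e had 0.57 and 1.0 TPM. Hist1h1t, the linker histone of the testis, had 2 counts in replicate 1 and 0 in replicate 2, both under the 3 counts taken as the limit.

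H2A genes were uneven, and 5 of 20 had 0 counts in both libraries. Hist3h2a, at chr11:58954685-58956830, had 65.0 and 195.0 counts, or 3.0 and 2.94 TPM, the second most counts of all histone genes. Its annotated transcript overlaps Trim17 on the same strand, and 31.5% of its 50-base words also occur in Trim17, which had 28.0 and 39.0 counts. How much of the Hist3h2a count came from Trim17 transcripts was not tested. Without Hist3h2a the family's sum was 34.4 CPM in replicate 1 and 73.3 CPM in replicate 2. The others that reached 1 TPM in each library, beside Hist2h2aa2, were Hist2h2ac, with 1.78 and 2.83 TPM, Hist1h2ab, with 2.24 and 1.26 TPM, and Hist1h2ak, with 1.03 and 1.15 TPM from 2.0 and 8.11 counts.

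Hist2h2aa1 and Hist2h2aa2 show how near-identical copies limit single-gene values. Hist2h2aa1 had 4.51 TPM in replicate 1 and 0 in replicate 2, while Hist2h2aa2 had 1.58 and 4.83 TPM. Every 50-base word of Hist2h2aa2 occurs in Hist2h2aa1. The sum of the pair was steadier, 24.0 counts in replicate 1 and 55.9 in replicate 2, or 2.32 and 2.73 CPM. The ratio of replicate 2 over replicate 1 for the pair was 1.18 (95% exact binomial interval 0.718 to 1.99), which includes 1. Antisense and processed transcripts annotated over this locus, such as Gm20634 with 51.3 and 173.1 counts, had more counts than the histone pair. Gm20634 lies on the same strand as Hist2h2aa1 and holds 89.4% of its 50-base words. How reads were divided between Gm20634 and the pair was not tested, and the sum of the pair does not settle it.

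Of the H2B genes, 1 of 19 reached 1 TPM in each library. It was Hist1h2bc, which forms a divergent pair with Hist1h2ac, with 29.9 and 85.1 counts or 2.84 and 2.59 TPM. The next by mean level were Hist2h2bb, at 2.49 and 0.83 TPM, Hist1h2bg, at 0.24 and 2.25 TPM, and Hist1h2bn, at 1.10 and 0.95 TPM. Hist2h2bb rested on 4.53 and 5.49 counts and Hist1h2bn on 2.0 and 6.32, so their TPM values are loose. Hist1h2ba, a testis H2B gene, and its neighbour Hist1h2aa, a testis H2A gene, had 0 counts in both libraries, which allows up to 0.290 CPM in replicate 1 and 0.146 CPM in replicate 2 each.

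H3 genes gave the fewest counts of any type, 40.6 in replicate 1 and 123.3 in replicate 2 over 12 genes. The H3 gene that reached 1 TPM in each library was Hist1h3i, at 1.21 and 1.11 TPM, from 2.61 and 8.46 counts. Hist2h3b was listed at 0 in replicate 1 and 1.81 TPM in replicate 2, Hist1h3a had 1.01 and 0.58 TPM, and Hist1h3d had 0.84 and 0.59 TPM. Hist2h3c1 had 15.7 counts in replicate 1 and 0 in replicate 2, and its close copy Hist2h3c2 had 1.87 and 30.8. Summed over Hist2h3b and both of these copies the counts were 17.6 and 49.3, a CPM ratio of replicate 2 over replicate 1 of 1.41 (0.786 to 2.51). Gm20634, with 51.3 and 173.1 counts, shares sequence with all of them. It holds 100% of the 50-base words of Hist2h3c1, 63.5% of those of Hist2h3c2 and 79.7% of those of Hist2h3b. How reads were divided between Gm20634 and these H3 genes was not tested, and their sum does not settle it.

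H4 genes encode the same core histone from many copies, and no H4 gene was at 0 in both libraries. Their median level was 1.56 TPM in replicate 1 and 2.39 TPM in replicate 2, against 0.275 and 0.67 TPM over all histone genes. Hist1h4m had 2.41 and 12.31 TPM, from 4.94 and 90.2 counts, and Hist1h4n had 5.96 and 3.53 TPM, from 14.1 and 29.2 counts. These neighbouring genes share 89.8% of the 50-base words of Hist1h4m. Summed over both, the counts were 19.0 and 119.4, and the CPM ratio of replicate 2 over replicate 1 was 3.17 (1.94 to 5.43). Hist1h4h had 2.59 and 4.80 TPM, Hist1h4c had 2.43 and 4.29 TPM, and Hist1h4i had 2.63 and 3.04 TPM.

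A few genes stood out along each cluster. The 5 genes with the most counts held 47.6% of the histone counts in replicate 1 and 45.0% in replicate 2. Hist1h1c, Hist3h2a and Hist1h2bc were among those 5 in both libraries. On chromosome 13 the largest block, chr13:23531050-23764406, held 29 genes with 21.1 and 47.1 CPM, of which 9 reached 1 TPM in each library. The block of 19 genes at chr13:21715763-21837530 held 3.68 and 11.7 CPM, and the 5 genes at chr13:22035164-22043676 held 1.74 and 3.85 CPM.

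Many H2A and H2B genes sit head to head around a shared promoter. There were 14 such pairs with starts 173 to 306 nt apart, and in 0 of them did both partners reach 1 TPM in each library. Of the 19 H2B genes only Hist1h2bc reached that level, so the count of 0 was nearly fixed beforehand and says nothing of pairing. The H2A partner had the higher TPM in both libraries in 3 pairs, those of Hist3h2a, whose partner is the pseudogene Hist3h2bb-ps, Hist1h2ap and Hist2h2ac. The H2B partner did in 4, those of Hist1h2bc, Hist1h2bg, Hist1h2bm and Hist1h2bq. In replicate 1 the values of Hist1h2ap, Hist1h2bg, Hist1h2bm and Hist1h2bq rested on 1.96, 1.05, 1 and 1.96 counts, under the limit of 3. Hist1h2ap and Hist1h2ao are near-identical copies, as are Hist1h2bq and Hist1h2br, and how reads were divided between copies was not tested. Summed over copies, the TPM in replicate 1 and replicate 2 was 0.67 and 1.49 for H2A, against 0.26 and 0.52 for H2B. In CPM the order was the other way, 0.190 and 0.730 for H2A against 0.387 and 1.02 for H2B. TPM divides by effective length, and the longest H2B models have 2015 and 2197 nt, against 480 and 482 nt for H2A. Likewise Hist2h2ac, of 520 nt, had 6 and 32 counts beside 9 and 29 for Hist2h2be, of 2620 nt. Hist1h2ac had 0.26 and 0.14 TPM beside 2.84 and 2.59 TPM for Hist1h2bc, the pair with the widest gap in counts among those in Hist1. In 2 pairs, Hist1h2aa with Hist1h2ba and Hist1h2an with Hist1h2bp, all values were 0.

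**Figure D2:**
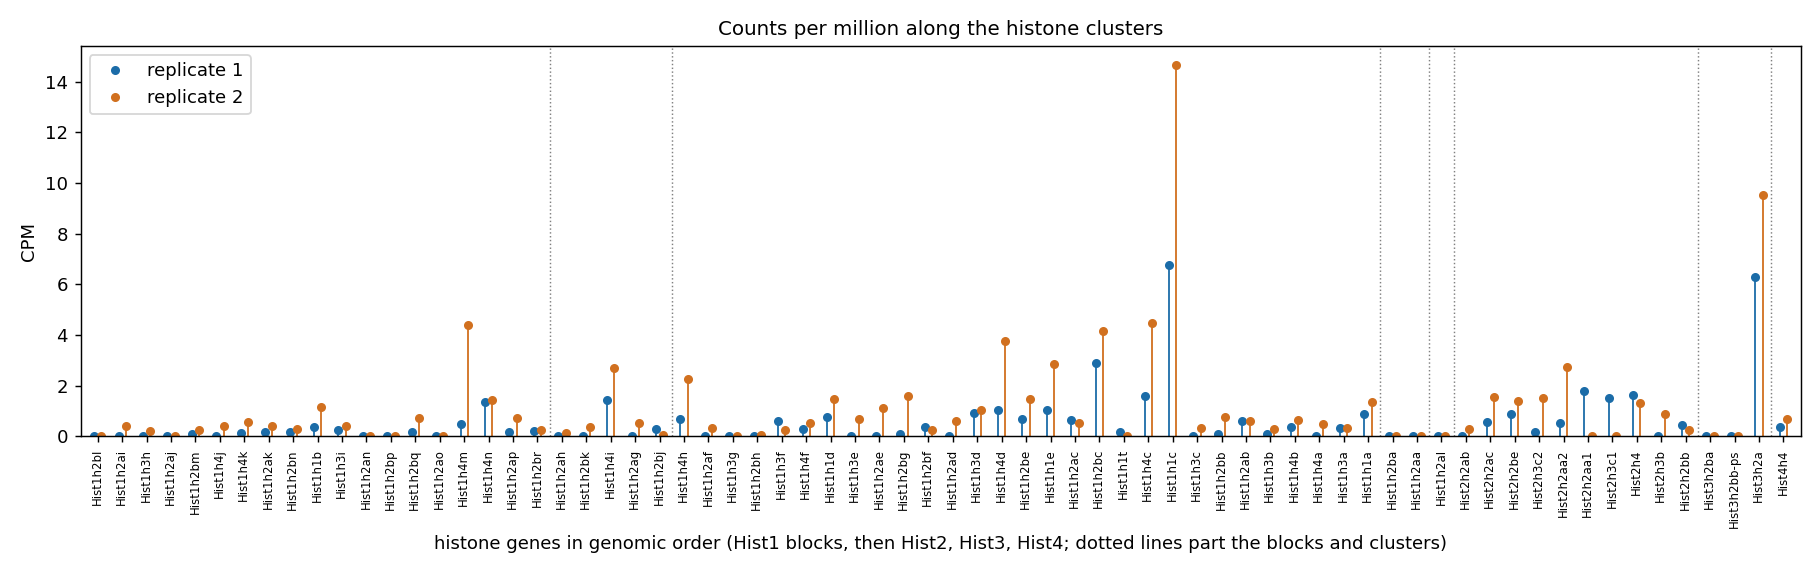
CPM of each histone gene in replicate 1 and replicate 2, in genomic order along the x axis, with dotted lines between the blocks of Hist1 and the other clusters. Hist1h1c (6.77 and 14.7 CPM) and Hist3h2a (6.28 and 9.51 CPM) stand above all others in both libraries.

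The histone share of the counts was higher in replicate 2 than in replicate 1. The CPM ratio of replicate 2 over replicate 1 for the summed family was 2.03 (1.83 to 2.27). By type it was 2.50 (2.01 to 3.14) for H4, 2.14 (1.73 to 2.68) for H1, 1.87 (1.41 to 2.47) for H2B, 1.80 (1.46 to 2.24) for H2A and 1.53 (1.06 to 2.21) for H3. The intervals of all 5 types overlapped. The other deposited quantification gave lower ratios: 1.46 (1.36 to 1.58) for the family, 1.81 (1.55 to 2.12) for H4, 1.57 (1.34 to 1.85) for H2A, 1.31 (1.13 to 1.52) for H1, 1.31 (1.10 to 1.56) for H2B and 1.11 (0.841 to 1.48) for H3, whose interval includes 1. Of the types, the H1 ratio differed most between the tables. The other quantification gave the H1 genes 272.8 estimated counts in replicate 1 and 525.5 in replicate 2. Of these, Hist1h1d alone held 134.5 and 80.0, against 8.0 and 30.1 expected counts in the gene table. The H1 ratio without Hist1h1d is not given here, so the difference cannot be read as one of the whole type. By cluster the ratio was 2.36 (2.07 to 2.70) for Hist1, 1.51 (1.14 to 2.04) for Hist3 and 1.32 (1.02 to 1.74) for Hist2. All Hist3 counts in the gene table, 65.0 and 195.0, were those of Hist3h2a, which overlaps Trim17, so the Hist3 ratio is that of 1 gene. The Hist1 interval lay above those of Hist3 and Hist2 there. In the other quantification the ratio was 1.63 (1.49 to 1.78) for Hist1, 1.11 (0.894 to 1.38) for Hist3 and 1.26 (1.03 to 1.54) for Hist2, and the intervals of Hist1 and Hist2 overlapped. Hist4h4, the single Hist4 gene, had 4 and 14 counts.

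**Figure D3:**
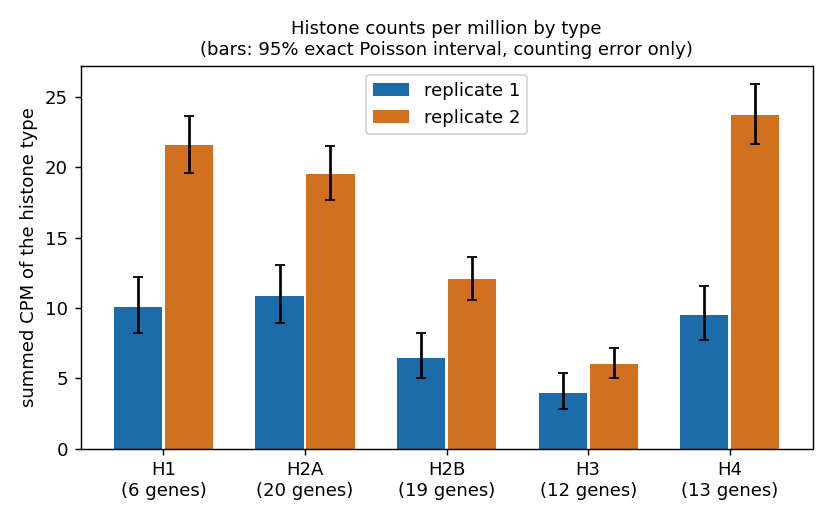
Summed CPM of each histone type in replicate 1 and replicate 2, with bars for the 95% exact Poisson interval of the rounded sum. Replicate 2 is above replicate 1 in every type, most for H4, with 9.48 CPM in replicate 1 and 23.7 CPM in replicate 2.

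Among single genes the ratio could be read for the 9 that had 10 counts or more in each library. On the log2 TPM scale, less the median of all genes, their median was 0.92, with 7 of 9 above 0. More than 2-fold higher in replicate 2 were 4 of the 9: Hist1h4d (1.87), Hist1h4c (1.53), Hist1h1e (1.52) and Hist1h1c (1.18). Over all 12759 genes 4.51% were. More than 2-fold lower were 0 of the 9, against 4.59% of all genes. The lowest were Hist2h4 at -0.25 and Hist1h4n at -0.05. The 12759 genes were not matched to the 9 on counts. In replicate 1 Hist1h4d and Hist1h1e had 11 counts each and Hist1h4c had 16.4, near the minimum of 10. The share among genes of like count is not given here. Because a gene with few reads enters only if both libraries give it 10, these 9 do not stand for the 70. By the other deposited quantification, 8 of 21 genes with that many counts were more than 2-fold apart, and 1 of 2 was with a minimum of 50 counts in the gene table. Of those 21 genes, 18 were above the median of all genes. The share of all genes more than 2-fold apart at these 2 settings is not given here, so these counts have no background beside them.

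In counts, Hist1h4d had 11.0 in replicate 1 and 77.0 in replicate 2, a CPM ratio of 3.53 (1.87 to 7.37). Hist1h4c had 16.4 and 92.1 counts, with a ratio of 2.83 (1.70 to 5.29). Hist1h1c, with the most counts, had a ratio of 2.17 (1.67 to 2.86). Hist2h4 had 17.0 and 27.0 counts and a ratio of 0.801 (0.421 to 1.57), which includes 1.

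**Figure D4:**
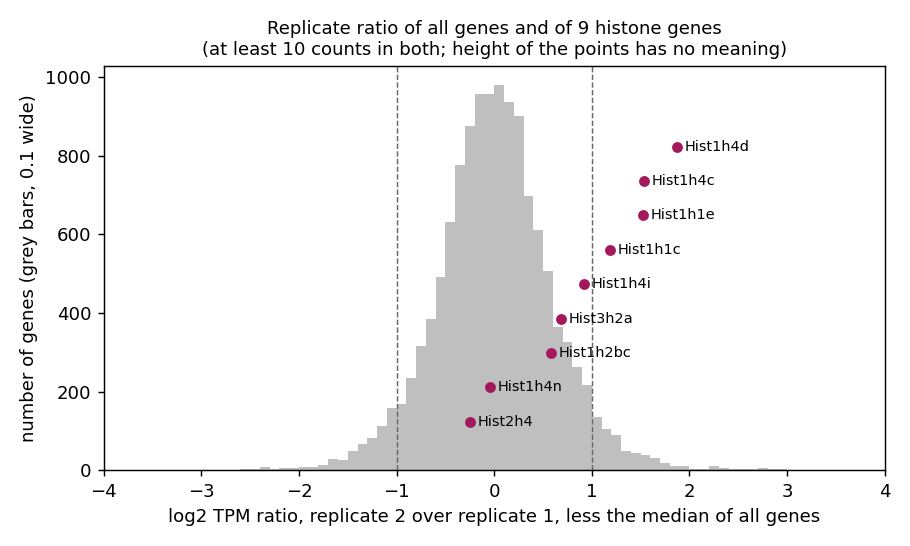
Log2 TPM ratio of replicate 2 over replicate 1, less the median of all genes: grey bars count all 12759 genes that had 10 counts or more in each library, and points show the 9 histone genes among them, at heights that carry no value. Dashed lines mark 2-fold; Hist1h4d, Hist1h4c, Hist1h1e and Hist1h1c lie past the line on the right, and 0 lie past the line on the left.

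Other measures moved between the same libraries. Depth, the amount of input RNA and the replicate itself cannot be told apart here. Transcript length moved with the ratio too: summed over the 32 histone genes with an effective length under 300 nt, the CPM ratio was 2.80 (2.16 to 3.68), against 1.43 summed over the 623 other nuclear protein-coding genes of that length. For 300 to 1000 nt it was 2.42 (1.98 to 2.97) against 1.16 over 4437 genes, and for 1000 nt or more it was 1.61 (1.39 to 1.88) against 0.942 over 16888 genes. These sums have no minimum count, and the histone ratio was the higher in each length class. With 10 counts or more in each library, the 4 histone genes of 300 to 1000 nt had a median ratio of 2.35, against 1.16 over 1203 protein-coding genes, and the 4 of 1000 nt or more had 1.84, against 0.927 over 9129. Under 300 nt the single histone gene with that many counts, Hist1h4n, was at 1.05, against 1.24 over 48. How far length acts on the ratio was not tested. The S-phase genes had a summed level of 176.6 CPM in replicate 1 and 172.4 CPM in replicate 2, and 12 of the 19 with 10 counts or more in each library had a TPM ratio above the median of all genes. The number above that median on the CPM scale is not given here and can differ. The mitotic markers summed to 784.8 and 694.7 CPM, nearly all of it Mki67, with 7879 and 13759 counts. Of the other mitotic markers, Top2a had a log2 CPM ratio of -0.04 less the median of all genes. On the same scale Plk1 was at 0.12, Cdk1 at 0.46 and Ccnb1 at 0.83. Their counts were 12 and 24 for Plk1, 11 and 28 for Cdk1, and 11 and 36 for Ccnb1. Aurkb had 4 and 33 counts, too few in replicate 1 for this ratio. The macrophage markers summed to 9527 and 12363 CPM, and 7 of the 8 had a TPM ratio above that median. The part of these markers in the histone ratio was not tested.

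Genes that work beside the replication-dependent histones gave the context of these levels, from lists chosen with results of these data known. All values are TPM in replicate 1 and replicate 2. The replication-independent variants stood higher. Their median was 3.65 and 3.48 TPM, against 0.275 and 0.67 TPM over the 70 replication-dependent genes. Of the 70 replication-dependent genes 18 reached 1 TPM in each library and 0 reached 10 TPM, against 8 and 5 of the 11 variants. The share of all genes at 10 TPM is not given here. H3f3b, encoding the H3 used outside replication, had 155.9 and 91.2 TPM. H2afy, a macroH2A gene, had 50.8 and 36.5 TPM, and Cenpa, the H3 variant of centromeres, had 40.7 and 15.7 TPM. H2afx, the variant whose mRNA also carries a stem-loop, had 0.61 and 1.11 TPM, H2afy2 had 0.36 and 0.27 TPM, and H1fx had 0 counts in both libraries.

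Of the factors for histone transcription and mRNA processing, 9 of 12 reached 1 TPM in each library. Eri1, an exonuclease that trims the histone mRNA end, had 15.6 and 6.71 TPM. Sympk, a scaffold of the cleavage complex, had 8.84 and 7.13 TPM, and Cpsf3, its endonuclease, had 8.75 and 4.73 TPM. Slbp, which binds the stem-loop, had 4.59 and 4.28 TPM. The lowest were Npat, at 1.02 and 0.49 TPM, Lsm11, a U7 subunit, at 0.49 and 0.46 TPM, and Zfp473, at 0.21 and 0.25 TPM.

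Of the histone chaperones 6 of 8 reached that level. Atrx and Daxx, which deposit the replication-independent H3, had 92.3 and 40.4 TPM and 24.96 and 21.25 TPM. Chaf1b, a subunit of the replication-coupled chaperone CAF-1, had 13.9 and 10.6 TPM, while the CAF-1 subunit Chaf1a had 0.43 and 0.56 TPM, Asf1b had 0.26 and 0.97 TPM and Nasp had 6.31 and 3.48 TPM. Of 20 S-phase genes 11 reached it: Pcna, the clamp of DNA polymerase, had 41.7 and 25.5 TPM, Tk1 had 13.9 and 9.58 TPM, and Cdt1 had 8.70 and 7.76 TPM. The lowest of that list were Ccne1, at 0.21 and 0.22 TPM, Cdc6, at 0.47 and 0.35 TPM, and Tyms, at 0.59 and 0.42 TPM. On the replicate ratio, the median less that of all genes was 0.92 for the 9 histone genes, 0.45 for the 8 macrophage markers, 0.44 for the variants, 0.29 for the processing factors, 0.19 for the S-phase genes, 0.04 for the mitotic markers and -0.15 for the chaperones.

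A further deposited quantification of the same libraries gave another view of the shared sequence. Under 50% of the 50-base words were found in no other gene for 34 of the 70 histone genes, and the median share of such unique words was 98.9% for H1, 60.5% for H4, 55.9% for H2B, 38.0% for H3 and 26.8% for H2A. Summed over the 70 genes, the other table held 50.9 CPM in replicate 1 and 74.6 CPM in replicate 2, where the gene table held 40.7 and 82.8 CPM. Among the same 9 genes, 0 were more than 2-fold higher in CPM in the other table than in the gene table in both libraries, against 7.91% of all 12759 genes. With 9 genes a count of 0 is near that share. The minimum of 10 counts also leaves out genes that the gene table counts low. Hist4h4 is 1, with 0.387 and 0.683 CPM in the gene table and 2.29 and 2.03 CPM in the other table.

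On the TPM scale the tables differed in general: the median log2 ratio of the gene table over the other table was 0.61 in replicate 1 and 2.18 in replicate 2 for these 9 genes, and 0.29 and 1.71 for all genes. The ratio was largest for Hist1h1c (0.92 and 2.26), Hist1h1e (0.80 and 2.27) and Hist1h4c (0.61 and 2.38), and smallest for Hist1h4i (0.22 and 1.93), Hist1h4d (0.39 and 2.11) and Hist1h2bc (0.38 and 2.18). In the other table Hist1h1c, Hist1h4k, Hist1h4m and Hist2h2aa2 reached 1 TPM in each library, 4 of the 70 genes, where 18 did in the gene table. The share of all genes at that level in the other table is not given here.

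Some genes with few counts in the gene table had many in the other table; they were picked after their values were seen. Hist1h1d had 134.5 and 80.0 estimated counts in the other table, against 8.0 and 30.1 in the gene table. Hist4h4 had 45.0 and 58.9, against 4 and 14, and Hist2h2be had 46.02 and 75.03, against 9.0 and 29.0. In replicate 1 this made Hist1h1d the highest histone gene of the other table, with 13.4% of the histone counts, where the gene table put Hist1h1c first. Hist1h1d has an annotated transcript of 7425 nt, the longest of the family.

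**Figure D5:**
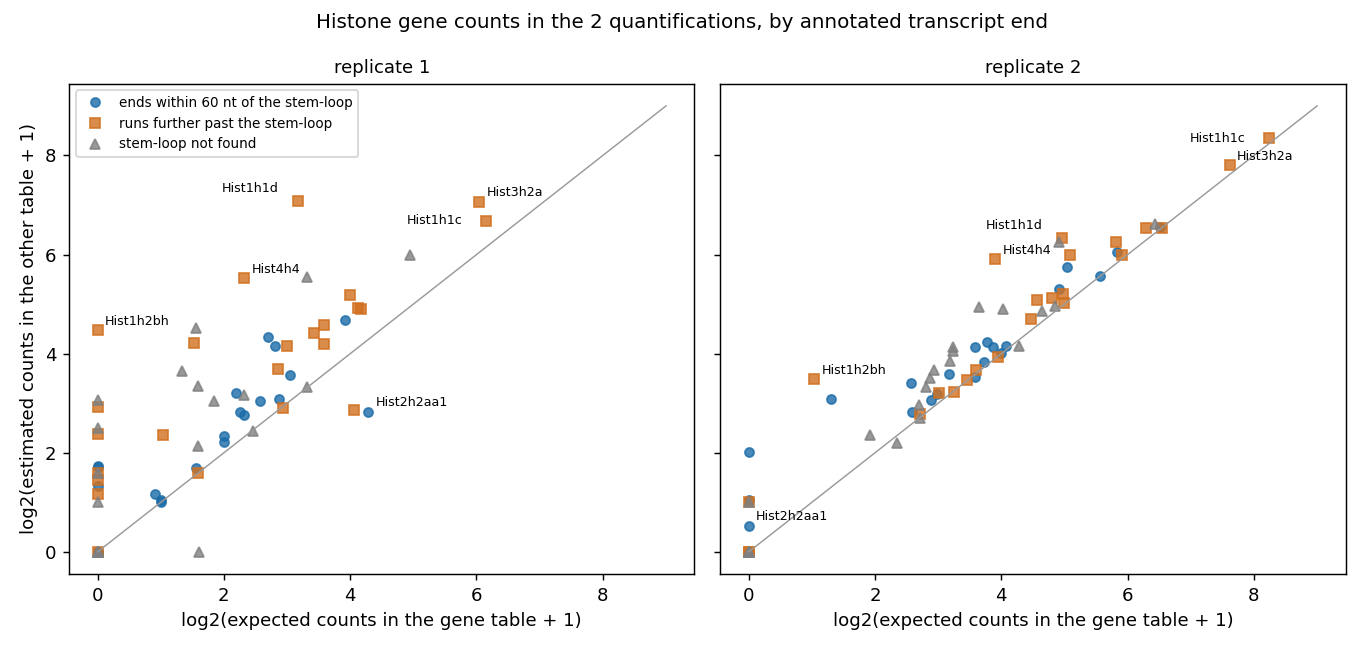
Counts of each histone gene in the gene table (x axis) and the other table (y axis), both as log2(count + 1), with replicate 1 on the left and replicate 2 on the right; the line marks equal counts and the symbols the annotated transcript end. The other table also holds more counts in all, 19674600 in replicate 1 and 28967100 in replicate 2. Most points lie above the line, and in replicate 1 Hist1h1d and Hist4h4 lie farthest from it among the labelled genes with counts in both tables.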

How the data were processed

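The deposited gene and transcript tables give, per gene or transcript, an expected count and a TPM made from alignments to transcripts, on mm10 with annotation M21, per the authors' readme files; their column layout is that of RSEM. The further deposited transcript tables hold estimated counts and TPM in the layout of kallisto, and were summed per gene. For program versions and library strand: not given in the sources used here. The deposited posterior standard deviation of a count is a score of the authors' model: it was above the square root of the count for 18 and 17 of the 70 genes. Rows that name no gene, such as spike-ins and numeric identifiers, were left out: 26345 rows with 0.504% of the counts in replicate 1 and 0.0968% in replicate 2. Each gene table's total in CPM is over gene rows.

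Symbols came from the transcript identifiers, and coordinates and transcript sequences from GENCODE M21. Intervals are 95%, exact Poisson for a sum and conditional exact binomial for a ratio, on rounded counts, computed with scipy 1.17.1; they cover counting error only. A count of 0 was read as at most 3 counts. Shared sequence was measured in 50-base words of the annotated transcripts. The ratio code was tested on simulated data. Alternatives tried were the other quantification, CPM, rescaled TPM, other minimum counts and each library alone.

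The genes, lists and tests were chosen with earlier results of these data known. Named genes were the 4 highest of each type by mean TPM, the largest and smallest replicate and quantification ratios (3 each) among genes with 10 counts or more in each library, members of counts of 5 or fewer, and the 3 highest and lowest of each list. With 1 group, no test between groups was possible.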

Additional observations from a re-analysis of the deposited data

Results flagged for a closer look

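Of the 26 histone genes at 0 expected counts in the gene table of replicate 1, 5 had more than 3 estimated counts in the other quantification of that library, which the levels above do not use. Hist1h2bh had 21.2 estimated counts, Hist2h2ab had 7.38, Hist1h2ae had 6.59, Hist2h3b had 4.65 and Hist1h3e had 4.19. In replicate 2, of 14 genes at 0, Hist1h2ao had 3.05 estimated counts in the other quantification. Genes at 0 in both tables numbered 13 in replicate 1 and 9 in replicate 2. A value of 0 for these 6 genes is thus a value of 1 quantification, and the reason for the difference was not tested.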

How the results depend on the processing

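The number of histone genes at 1 TPM or more in both libraries, 18, was 4 in the other quantification, 9 in CPM, 31 with TPM rescaled over nuclear protein-coding genes and 0 at 10 TPM; in single libraries it ran from 25 to 28. The median level, 0.473 TPM, was 2.97 with that rescaling and 2.79 over genes that had 10 counts or more in each library. The number beyond 2-fold between replicates, 4, was 8 of 21 genes in the other quantification and 1 of 2 with a minimum of 50 counts. For the numbers of genes under these alternatives, the share of all genes is not given here. The share of the 5 highest genes, 46.3%, was 43.1% in the other quantification. The quantification ratio, 1.40, was 0.200 in CPM. By the other quantification, an alternative added after the data were seen, the summed CPM ratio of replicate 2 over replicate 1 was 1.46 for the family in place of 2.03, 1.31 for H1, 1.31 for H2B, 1.81 for H4, 1.63 for Hist1 and 1.11 for Hist3, each below the gene table's interval. The cause was not tested, and for H1 the ratio without Hist1h1d is not given here. The CPM and rescaled values differ from TPM in unit. In the other alternatives tried, values moved by less than the limit set for each result. These included those without Hist3h2a or Hist1h1c, added after the data were seen. The limit was the SD between the 2 libraries for the median level, the shares and the quantification ratio. For the median replicate ratio it was the SD over the 9 genes. For numbers of genes it was a fixed fold, and for summed ratios the gene table's interval. With 2 libraries, each single value lies within their SD of the mean whatever the data, so it is no check. In replicate 1 and replicate 2 the median was 0.275 and 0.67 TPM, and the share of counts 0.00407% and 0.00828%. The 5 highest held 47.6% and 45.0%, and the quantification ratio was 0.61 and 2.18. The median replicate ratio stayed above 0, between 0.50 and 1.05.

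At this depth most histone genes have under 10 counts, and near-identical copies share reads, so sums are firmer than single genes. Sums do not settle how reads were divided with overlapping genes of other families, such as Gm20634 and Trim17. No paired analysis was possible because there is 1 group.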
